A study of Mus musculus with 6 samples.

Results

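Homeobox genes encode transcription factors that bind DNA through a homeodomain, a compact fold whose recognition helix reads short sequences rich in A and T. In embryos they assign position and cell identity, and in the mouse inner ear members of the H6 (Hmx), Lmx and Distal-less (Dlx) families pattern the otic vesicle, the sac from which hearing and balance organs form. ZEB factors carry zinc fingers beside a homeodomain-like segment and are best known as repressors of epithelial genes, whereas TGIF factors are corepressors that limit TGF-beta and retinoid signalling.

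The homeobox genes described here are the 23 rows, of 4994 in the deposited expression table, whose gene name starts with a name of one of the main homeobox families. Isl1, Pou3f4, Pou4f3 and opposite-strand or antisense names were left out. Of 154 protein coding genes that the same naming rule finds in GENCODE M21, an annotation of the mouse build GRCm38, the 23 include 7 of the NK-like class, 5 paired-like genes, and 3 genes each of the LIM, TALE and zinc finger and CUT classes. None of the 41 genes of the HOX class or the 14 of the POU class that match the rule was in the table. Genes that match the rule but are not among the 23 were absent from the table, which holds only genes that the authors selected. Their absence does not show that they were not expressed.

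RNA-seq values came from wild-type mouse inner ear organoids, labelled as epithelial cells and grown in low-attachment plates. The PD group (n = 3) received 1 µM PD0325901, a small molecule that blocks MEK, the kinase upstream of ERK, for 10 days. The DMSO group (n = 3) received an equal volume of the solvent over the same 10 days. Both groups shared a medium with CHIR99021 (3 µM), which blocks GSK3, and with the growth factors IGF (50 ng/mL), EGF (20 ng/mL) and bFGF (10 ng/mL). The series asked how the inhibitor might promote hair cells. Nothing in the labels says that replicates were grown separately. The p-values therefore reflect the spread among the samples at hand, and that spread may be technical.

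The 4994 values summed to between 290560 and 296997 in PD libraries and between 289255 and 293278 in DMSO libraries. Depth is unknown, since the sums cover a selected and normalized table. Of 10 known targets of ERK signalling, the 9 in the table all fell, and their summed values were 80.3 to 89.9 in PD organoids, against 577 to 619 in DMSO organoids. The tissue label was read against its markers: 7 of 14 markers of otic epithelium were in the table, including Epcam, Cdh1, Krt8 and Oc90, all 4 detected in every library. Their summed values were 1169 to 1223 in PD organoids and 2071 to 2197 in DMSO organoids. Markers of mesenchyme and fibroblasts were detected in the same libraries, 12 of 14 of them listed. Their sums were 4239 to 4751 in PD organoids and 1827 to 2002 in DMSO organoids, most of it from Lum and Dcn. In whole organoids, fewer cells of a type and less RNA per cell cannot be told apart.

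Of the 23 homeobox genes, 9 rose, 13 fell and 1, Otx2, was not called in PD organoids (limma on log2(value + 1), adjusted p under 0.05 over all 4994 genes). In 22 of them every PD sample lay on the same side of every DMSO sample. Of all 4994 genes 95.5% were called, 44.5% higher and 51.1% lower, and groups did not overlap in 95.2%. Every gene in the table passes a test by the authors on the same samples. That test gave a highest adjusted p of 0.0499 and a smallest fold of 1.5 in either direction in the authors' deposited table. Nothing can therefore be read from the number of homeobox genes called. The limma p-values below likewise concern genes already selected on these samples. The median size of the log2 difference, in either direction, was 1.01 over the 23 genes and 0.85 over the table. The median signed difference was -0.57 over the 23 genes and -0.42 over the table. All log2 differences below are PD minus DMSO on log2(value + 1), a scale on which genes with low values show less than their true change. The authors' scale is not stated, so levels of different genes are not compared.

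By log2 difference, the largest fall was that of Shox2 and the largest rise that of Lmx1a. RefSeq promoter windows on GRCm38.p6, each the 250 bases before a transcript start, were found for 17 of the 23 genes, 34 windows in all. In 5 of these genes a window lay wholly outside the annotated gene. The 2 printed here belong to the genes among those 5 with the largest fall and the largest rise by log2 difference. A stretch of DNA before a transcript start of a gene in each direction can thus be read beside its values. Whether these starts are used in the organoids was not tested. Both lie on the minus strand, at chr3:66981772-66982021 for Shox2 and at chr2:45117443-45117692 for Zeb2. Capitals mark AGGAAG or its reverse complement CTTCCT, the motif named PEA3 that ETS factors such as Etv4 and Etv5 can bind.
Shox2: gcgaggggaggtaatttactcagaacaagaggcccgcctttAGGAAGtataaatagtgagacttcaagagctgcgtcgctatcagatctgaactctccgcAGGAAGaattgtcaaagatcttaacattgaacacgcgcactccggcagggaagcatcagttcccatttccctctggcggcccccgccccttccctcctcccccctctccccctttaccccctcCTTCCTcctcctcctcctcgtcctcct
Zeb2: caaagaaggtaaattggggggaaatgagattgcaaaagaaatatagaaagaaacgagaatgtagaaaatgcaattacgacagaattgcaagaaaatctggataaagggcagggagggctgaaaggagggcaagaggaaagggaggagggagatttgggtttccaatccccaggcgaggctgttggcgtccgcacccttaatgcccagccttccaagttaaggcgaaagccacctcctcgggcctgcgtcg

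The Shox2 window held 3 copies of AGGAAG counted on both strands and the printed Zeb2 window held 0. Each of the other 3 Zeb2 windows held 1. By ratio of means Lhx6, at low values, rose more than Zeb2 (16.8 against 4.58 times). The Lhx6 window outside its gene held 2 copies. Over all 32851 mouse windows of this length, 29.5% held the motif, and 11 of the 34 windows of the homeobox genes did, from 9 genes. Windows of a gene can overlap, as those of Zeb2 at chr2:45113280-45113529 and chr2:45113254-45113503 do. A single match can therefore be counted more than once. The homeodomain core TAATTA was in 4.84% of all windows and in 3 windows of the homeobox genes, belonging to Otx2 and Prrx1. CAGGTG or CACCTG, the E-box that ZEB factors recognise, was in 17.2% of all windows and in 1 of the homeobox genes, in Satb1. A match describes letters in a window and does not show binding. Neither printed window held TAATTA or CAGGTG.

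**Figure D1:**
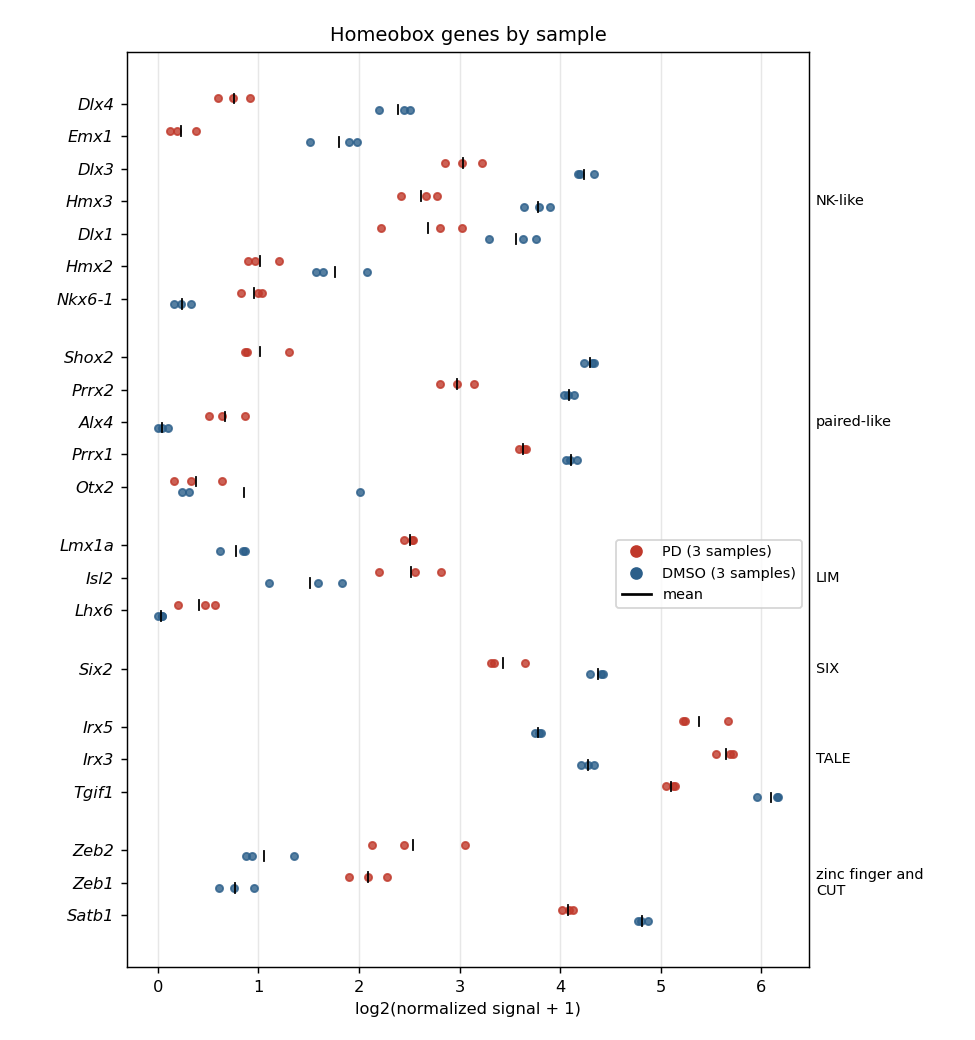
Values of 22 homeobox genes in each sample, as log2(normalized signal + 1) on the horizontal axis, with PD samples in red above DMSO samples in blue, a black tick at each group mean and genes grouped by class. Groups are separated for all genes shown except Otx2, where 1 DMSO sample stands far above the other DMSO samples.

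Among NK-like genes 6 of 7 fell and 1 rose. These genes include the Distal-less and H6 families, which act in placodes, branchial arches, forebrain and the vestibular part of the ear. Dlx4 had 0.68, 0.89 and 0.51 in PD organoids, against 4.68, 4.47 and 3.58 in DMSO organoids. Its log2 difference was -1.63 ± 0.14 (SE, limma adjusted p = 2.96e-05), and its mean in DMSO was 6.12 times that in PD. For Dlx4 all PD samples were under 1 and all DMSO samples above 3. Dlx3, which is required in placenta and skin appendages, had 6.26, 8.36 and 7.12 in PD organoids, against 17.12, 17.37 and 19.18 in DMSO organoids. The highest PD sample of Dlx3 stayed below the lowest DMSO sample, and the log2 difference was -1.20 ± 0.12 (SE, limma adjusted p = 5.60e-05). Dlx1, a factor of forebrain interneurons, had 3.67, 7.12 and 5.99 in PD organoids and 8.81, 12.52 and 11.39 in DMSO organoids. Replicate 1 was the lowest of its group in both, and the log2 difference was -0.88 ± 0.23 (SE, limma adjusted p = 0.00669), or -0.56 with libraries scaled by their median of ratios.

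Emx1, a gene of the developing cerebral cortex, had 0.3, 0.14 and 0.09 in PD organoids, against 1.85, 2.94 and 2.74 in DMSO organoids. Its DMSO mean was 14.2 times its PD mean, the second largest ratio among the homeobox genes that fell, after Shox2, and its log2 difference was -1.57 ± 0.15 (SE, limma adjusted p = 4.59e-05). Hmx3 and Hmx2 are expressed in the dorsolateral otic vesicle of the mouse and are needed for the vestibular system. Hmx3 had 5.86, 5.37 and 4.34 in PD organoids, against 12.8, 13.93 and 11.51 in DMSO organoids, and the log2 difference was -1.16 ± 0.13 (SE, limma adjusted p = 0.000123). Hmx2 had 1.3, 0.86 and 0.95 in PD organoids, against 3.24, 2.12 and 1.98 in DMSO organoids, and the log2 difference was -0.75 ± 0.17 (SE, limma adjusted p = 0.00362). For both, every PD sample was lower than every DMSO sample. Nkx6-1, which specifies pancreatic beta cells and ventral neural progenitors, was the NK-like gene that rose. It had 0.99, 1.05 and 0.78 in PD organoids, against 0.17, 0.12 and 0.26 in DMSO organoids, so both means were under 1; the log2 difference was 0.71 ± 0.10 (SE, limma adjusted p = 0.000247).

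Paired-like genes gave 3 falls, 1 rise and 1 gene not called. Shox2, on the minus strand of chromosome 3 from 66971727 to 66981771 (GRCm38), acts in the limb and in the pacemaker tissue of the heart. It had 0.85, 1.47 and 0.83 in PD organoids, against 18.92, 19.22 and 17.85 in DMSO organoids. The DMSO mean was 17.8 times the PD mean, and the log2 difference of -3.28 ± 0.15 (SE, limma adjusted p = 1.82e-06) placed Shox2 at rank 61 by size among the 4994 genes. None of the other 22 genes that match the naming rule exceeded 1.73 in either direction. Prrx1 and Prrx2 act together in limb and craniofacial mesenchyme, and mice without both have inner ear defects. Prrx2 had 7.84, 6.88 and 5.99 in PD organoids, against 15.41, 16.64 and 15.86 in DMSO organoids, and the log2 difference was -1.11 ± 0.11 (SE, limma adjusted p = 6.64e-05). Prrx1 had 11.02, 11.68 and 11.44 in PD organoids, against 15.67, 16.99 and 16.1 in DMSO organoids. Its groups did not overlap, but the change was small, at -0.48 ± 0.08 on the log2 scale (SE, limma adjusted p = 0.00095). The call was lost when libraries were scaled by their median of ratios, where the log2 difference was -0.15 and the limma adjusted p = 0.109. The scaling factors came only from genes already selected as changed, so this scaling may remove part of a true difference. The DMSO mean of Prrx1 was 1.43 times its PD mean, and the authors' deposited table gives a fold of 0.667.

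Alx4, another gene of limb and skull mesenchyme, had 0.82, 0.42 and 0.56 in PD organoids, against 0.07, 0 and 0.03 in DMSO organoids. Every DMSO value of Alx4 was under 0.1, the authors' deposited table gives a fold of 15.5, and the log2 difference was 0.62 ± 0.10 (SE, limma adjusted p = 0.000815). Otx2, needed for forebrain and eye, had 0.56, 0.26 and 0.12 in PD organoids, against 3.04, 0.18 and 0.24 in DMSO organoids. DMSO replicate 1 alone stood high, the groups overlapped, and the log2 difference was -0.48 ± 0.45 (SE, limma adjusted p = 0.329). Without DMSO replicate 1 the sign turned, to 0.10 (limma adjusted p = 0.511). In the authors' deposited table Otx2 has a fold of 0.183 and an adjusted p of 0.0333.

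Of the mesenchyme and fibroblast markers, to which Prrx1 belongs, 9 rose, 1 fell and 2 were not called. The 1 that fell was Prrx1 itself, so the paired-like genes that fell stood beside a rise of most mesenchyme markers. Tbx18, a factor of otic mesenchyme, had 20.28, 19.9 and 20.14 in PD organoids, against 3.99, 4.28 and 3.76 in DMSO organoids. The part of mesenchymal cells in the values of Prrx1, Prrx2, Alx4 and Shox2 was not tested.

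**Figure D2:**
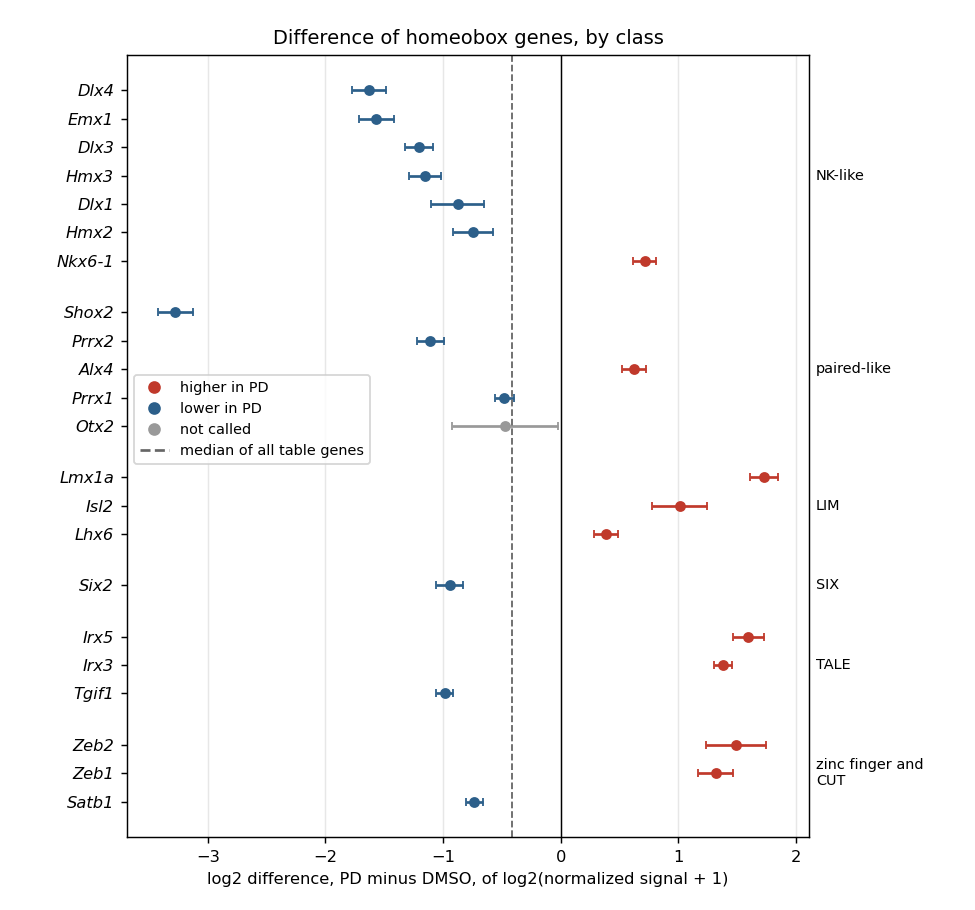
Log2 difference of 22 homeobox genes, PD minus DMSO, on log2(normalized signal + 1), with bars for the SE from limma and a dashed line at the median of all table genes, -0.42. Shox2 lies at -3.28 and Lmx1a, Isl2 and Lhx6 lie above 0.

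The 3 LIM genes that match the naming rule, Lmx1a, Isl2 and Lhx6, rose, whereas Isl1, a LIM homeodomain gene that the rule leaves out, fell with a log2 difference of -1.47 (limma adjusted p = 1.73e-06). LIM homeodomain factors pair a homeodomain with LIM domains that bind the cofactor LDB. Lmx1a, on the plus strand of chromosome 1 from 167689237 to 167848741 (GRCm38), limits sensory patches and shapes the endolymphatic duct in the mouse ear. It had 4.82, 4.78 and 4.47 in PD organoids, against 0.54, 0.83 and 0.8 in DMSO organoids. The PD mean was 6.48 times the DMSO mean, the samples of each group lay close together, and the log2 difference was 1.73 ± 0.12 (SE, limma adjusted p = 1.08e-05). Isl2, a factor of motor neurons, had 3.59, 4.87 and 6.03 in PD organoids, against 1.15, 2.01 and 2.56 in DMSO organoids. Both groups spread widely, and the log2 difference was 1.01 ± 0.23 (SE, limma adjusted p = 0.00399). Lhx6, a factor of cortical interneurons, had 0.48, 0.38 and 0.15 in PD organoids, against 0.03, 0.03 and 0 in DMSO organoids, and the log2 difference was 0.38 ± 0.10 (SE, limma adjusted p = 0.00832). All values of Lhx6 were under 0.5, and the authors' deposited table gives a fold of 17.1.

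Neuron markers moved in the direction of Isl2 and Lhx6 and against that of Dlx1 and Emx1, genes of the developing forebrain that fell. Of 12 such markers 5 were in the table, and all 5 rose, with summed values of 7.45 to 7.98 in PD organoids and 0.74 to 0.88 in DMSO organoids. Syt1, a synaptic vesicle protein, had 2.32, 2.37 and 2.18 in PD organoids, against 0.24, 0.27 and 0.22 in DMSO organoids. No listed neuron marker was at 0 in a whole group, and the part of neurons in the values of these genes was not tested.

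Six2, which maintains nephron progenitors in the kidney, fell. It had 9.13, 8.91 and 11.59 in PD organoids, against 20.26, 18.63 and 20.54 in DMSO organoids. Every PD sample was below every DMSO sample, and the log2 difference was -0.94 ± 0.12 (SE, limma adjusted p = 0.000165). The DMSO mean was 2.01 times the PD mean. With libraries scaled by their median of ratios the log2 difference was -0.61, and the call held. Of the otic epithelium markers 2 rose and 5 fell; their part in the value of Six2 was not tested.

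TALE genes, whose homeodomain carries an extra loop, gave 2 rises and 1 fall. Irx3 and Irx5, Iroquois genes of heart, limb and neural patterning, both rose. Irx3 had 45.98, 51.69 and 50.64 in PD organoids, against 19.2, 17.48 and 18.46 in DMSO organoids. Its log2 difference of 1.38 ± 0.08 (SE, limma adjusted p = 3.77e-06) had the smallest adjusted p of the homeobox genes that rose. Irx5 had 36.73, 50.07 and 36.36 in PD organoids, against 13, 12.8 and 12.5 in DMSO organoids. PD replicate 2 was the highest sample for both genes. The log2 difference of Irx5 was 1.60 ± 0.13 (SE, limma adjusted p = 1.98e-05), and 1.45 without that sample. Tgif1 had 34.4, 33.87 and 32.13 in PD organoids, against 61.33, 70.15 and 70.95 in DMSO organoids. The DMSO mean of this corepressor was 2.02 times the PD mean, and the log2 difference was -0.99 ± 0.08 (SE, limma adjusted p = 1.62e-05), or -0.64 with libraries scaled by their median of ratios.

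Both ZEB genes rose and Satb1 fell. Zeb1, which represses epithelial genes in the mesenchyme of the mouse inner ear, had 3.86, 3.26 and 2.74 in PD organoids, against 0.94, 0.52 and 0.69 in DMSO organoids. Zeb2, which acts in neural crest and nervous system, had 7.29, 3.37 and 4.45 in PD organoids, against 0.91, 1.55 and 0.84 in DMSO organoids. PD replicate 1 was the highest sample of both, and no PD sample reached down to the DMSO range. The PD means were 4.59 times the DMSO mean for Zeb1 and 4.58 times for Zeb2. The log2 differences were 1.32 ± 0.15 for Zeb1 (SE, limma adjusted p = 0.000106) and 1.49 ± 0.25 for Zeb2 (SE, limma adjusted p = 0.000867). Satb1, a chromatin organiser best known from T cells, had 16.03, 15.26 and 16.49 in PD organoids, against 26.29, 26.94 and 28.32 in DMSO organoids. Its log2 difference was -0.74 ± 0.07 (SE, limma adjusted p = 5.91e-05), and -0.39 with libraries scaled by their median of ratios.

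Of 22 epithelial genes that ZEB factors are known to repress or oppose, 9 were in the table, and 4 rose and 5 fell. Cdh1, which encodes E-cadherin, the best known ZEB target, was among those that rose, with 118.81, 103.37 and 119.98 in PD organoids, against 51.84, 54.8 and 54.06 in DMSO organoids. Epcam, an epithelial surface protein, fell, with 524.15, 496.1 and 522.49 in PD organoids, against 803.1, 866.15 and 840.04 in DMSO organoids. Prss8, a membrane protease, rose by 1.16 on the log2 scale. Mal2, a trafficking protein, fell, with 27.29, 25.18 and 26.5 in PD organoids, against 51.65, 55.18 and 53.91 in DMSO organoids. The median over the 9 genes was -0.70, against -0.42 over the table, with single genes between -1.20 and 1.56. The list therefore held no common direction beside the rise of both ZEB genes.

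The 23 genes lie on 13 chromosomes. In 3 pairs no protein coding gene of the annotation lies between the members, and each pair moved in a single direction. Irx3 (91798525 to 91802067) and Irx5 (92357625 to 92376286) on chromosome 8 are 555557 bases apart, start in opposite directions and both rose. Dlx3 (95120119 to 95125296) and Dlx4 (95140447 to 95146263) on chromosome 11 are 15150 bases apart, point towards each other and both fell. Hmx3 (131542867 to 131544925) and Hmx2 (131548773 to 131558014) on chromosome 7 are 3847 bases apart, lie on the plus strand and both fell. In the whole table, 1049 pairs of consecutive protein coding genes had both genes called, and 67.1% of them moved in a single direction, so 3 pairs of 3 cannot be set apart from that background.

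Opposite-strand transcripts overlap Irx3 and Dlx4. The libraries were stranded, but whether reads were counted by strand is not given in the sources used here. Irx3os had 8.35, 7.44 and 7.12 in PD organoids, against 4.73, 4.66 and 4.64 in DMSO organoids. Dlx4os had 1.13, 0.73 and 0.71 in PD organoids, against 2.96, 2.33 and 2.63 in DMSO organoids. Each moved in the direction of its partner. Whether the reads of a partner pair were kept apart is unknown, so the values of Irx3 and Dlx4 are uncertain to that extent.

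**Figure D3:**
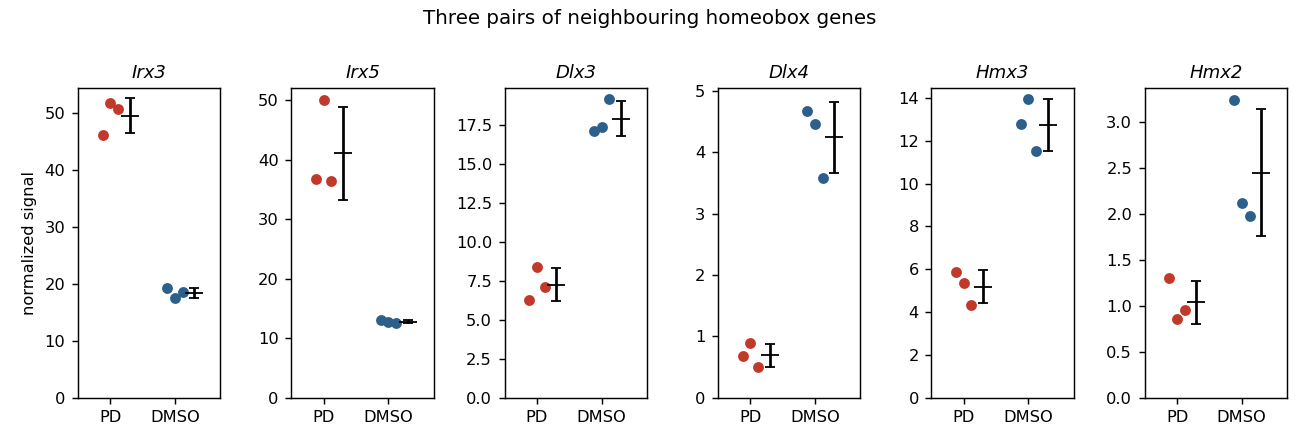
Normalized signal of the 3 pairs of neighbouring homeobox genes, Irx3 with Irx5, Dlx3 with Dlx4 and Hmx3 with Hmx2, with each sample as a point, PD left of DMSO, and mean ± SD beside the points; each panel has its own axis from 0. Both genes of the Irx pair are higher in PD, and both genes of the Dlx and Hmx pairs are lower.

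Replicate spread was described by the coefficient of variation, the SD divided by the mean. In PD organoids the median coefficient of variation was 14.9% over the 17 homeobox genes with a mean of at least 1, and 10.2% over the table. In DMSO organoids it was 8.21% over 18 homeobox genes and 9.74% over the table. The highest among the homeobox genes was that of Otx2 in DMSO, 142%, and the highest over the table was 173% in either group.

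Homeobox genes outside the naming rule were described from a list of 77. Of these 14 were in the table, 8 rose and 6 fell, with a median log2 difference of 0.61. Isl1, Pou3f4 and Dmbx1 had the smallest adjusted p. Dmbx1, a paired-like gene of brain development, had 0.49, 0.62 and 0.67 in PD organoids, against 6.3, 6.86 and 8.76 in DMSO organoids. Isl1, a LIM homeodomain gene expressed in otic progenitors, fell with a log2 difference of -1.47, and Pou3f4, a gene of otic mesenchyme, rose by 2.13. The zinc finger and homeobox genes Zhx1, Zhx2 and Zhx3 all rose, by 0.90, 1.16 and 1.12; the first and the third are named after their values were seen. Phox2a and Crx, named after their values were seen, were listed at 0 in every PD library and at no more than 0.91 in DMSO libraries.

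Among 29 cofactors and partners 7 were in the table, 4 higher and 3 lower. Ldb2, a binding partner of LIM factors, had 16, 21.26 and 16.69 in PD organoids, against 1.39, 0.69 and 0.54 in DMSO organoids, a log2 difference of 3.36. Lmx1a, Isl2 and Lhx6 rose beside it, and Isl1 fell. Tle2, a Groucho family corepressor, had 41.13, 57.89 and 40.6 in PD organoids, against 6.56, 4.09 and 6.95 in DMSO organoids. Lmo2, a LIM-only protein, rose by 1.83, and Sall3, a zinc finger factor, had a log2 difference of -1.62. Of 26 chromatin regulators of the Hox clusters 4 were in the table. Bmi1 and Cbx6, both Polycomb components, rose by 1.00 and 0.95. Phf19 and Cbx7 fell, with log2 differences of -0.80 and -0.61.

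Retinoic acid, a signal that controls many homeobox genes, was covered by 12 listed genes of 19, of which 7 rose and 5 fell. Enzymes that make retinoic acid moved in opposite directions. Aldh1a3 had 122.14, 99.31 and 125.34 in PD organoids, against 569.38, 630.94 and 606.47 in DMSO organoids. Aldh1a1 had 399.63, 381.48 and 395.43 in PD organoids, against 115.76, 127.51 and 130.05 in DMSO organoids. Stra6, the retinol uptake receptor, fell with a log2 difference of -1.96, and Dhrs3, which returns retinal to retinol, with -1.75. The range over the 12 genes was -2.38 to 3.14; its upper end was Aldh1a2, named after its values were seen.

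**Figure D4:**
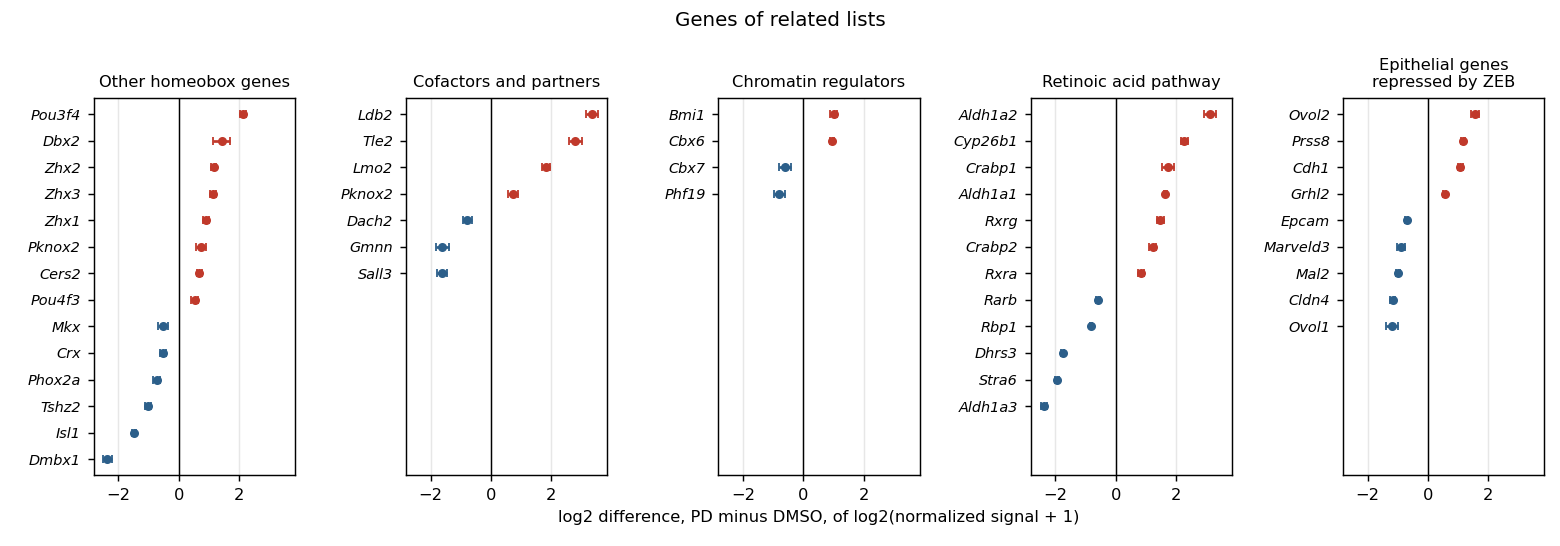
Log2 difference, PD minus DMSO, of the listed genes of 5 related lists on log2(normalized signal + 1), with bars for the SE from limma, red for higher and blue for lower in PD. Each list holds genes on both sides of 0, with Aldh1a2 and Ldb2 among the highest and Aldh1a3 and Dmbx1 among the lowest.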

How the data were processed

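Stranded mRNA libraries of 6 samples were sequenced, per the labels' protocols. Per the submitters' processing notes, Trimmomatic, HISAT2, HTSeq and DESeq2 were used with the mouse build mm10; the sources used here do not give what each tool did, its version, the annotation or the use of strand. For genes they selected, the authors deposited 1 value of normalized signal for each gene in each sample, to 2 decimals; the scale is not stated in the headers, and whole reads could not be recovered from the values, so depth is unknown and no counting interval is given. For each gene the authors also deposited their own fold (PD against control), the log2 of it, and p-values before and after adjustment. Every per-sample column was matched to a sample by its name.

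From these values, limma 3.58.1 in R 4.3.3 was fitted to log2(value + 1) over all 4994 genes and 6 samples, letting the spread follow the level (limma's trend), with no filter and no block. Benjamini-Hochberg adjustment ran over the table. The procedure was tested on simulated data, in which few genes changed and none of those had a low DMSO mean. That test therefore does not cover genes with low values or a table of selected genes. Errors are SE for log2 differences and SD for means. Other steps used Python 3.11.15 and pandas 2.3.3; coordinates are 1-based on GRCm38 from GENCODE M21, which held 4988 of the identifiers. No homeobox gene was removed by a filter on low values; 19 of the 23 reached 1 in 3 or more samples. The members and lists were chosen with earlier results of these data known. Within each class the 4 called genes with the largest difference and a group mean of 1 or more were to be given in full, with all that were not called, overlapped or had means under 1; all are given but 1, which is counted among the 23 and is not reported here. From each other list up to 4 called genes with the smallest adjusted p were named, and further names are marked. Lists not described beside a result are given among the other observations. Alternatives covered pseudocounts, a filter, scaling, the trend, a replicate block, thresholds and leaving out each sample.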

Additional observations from a re-analysis of the deposited data

How the results depend on the processing

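The 9 homeobox genes called higher and 13 called lower were counted again under pseudocounts of 0.1 and 0.5, quantile normalization, a fit without the trend, an adjusted p under 0.01, a call that also needs groups that do not overlap, and without each sample in turn. Each of these gave 9 and 13. The authors had already selected every gene by a test on these same samples. The repeated counts were therefore largely fixed in advance and add no separate support. With only genes that reached 1 in 3 or more samples, 6 were higher and 13 lower, because Alx4, Lhx6, Nkx6-1 and Otx2 were not tested. The filter also moved the other homeobox genes called lower to 3, against 6. Scaling by the median of ratios gave 9 higher and 12 lower. Its factors came only from genes that the authors had selected as changed, 2340 higher and 2654 lower by their fold. Whether it corrects the libraries or removes part of a true difference therefore cannot be told. The median of ratios scaling shifted the log2 difference of a gene by a median of 0.31 over all genes, and quantile normalization by 0.12. Under the median of ratios scaling Prrx1 lost its call (log2 difference -0.15, limma adjusted p = 0.109). With quantile normalization its difference was -0.28 and the call was kept. Under the median of ratios scaling the differences of Six2, Satb1, Tgif1 and Dlx1 came to -0.61, -0.39, -0.64 and -0.56, with calls kept. The log2 difference of Otx2 was reversed, to 0.10, without DMSO replicate 1; leaving out 1 sample gave -0.78 to 0.10, and Otx2 was called under none of the alternatives. Of all genes, 4159 to 4803 were called in the alternatives with all samples and 4626 to 4660 without 1 sample. With a pseudocount of 0.1 the differences of genes with low values grew, to -3.28 for Emx1, 2.39 for Alx4, 1.90 for Nkx6-1 and 1.79 for Lhx6.

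Replicate numbers are shared between the groups, but same-numbered samples did not deviate together, with correlations of deviations of -0.032, -0.0052 and -0.0013. With the replicate block 9 homeobox genes were higher and 13 lower, 4761 genes were called in the table, and no homeobox gene changed its call; no sample pair was crossed. Precision is limited by 3 samples a group and by values under 1, where rounding to 2 decimals is coarse.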

Other observations

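Marker lists of other cell types moved in both directions. Of 17 hair cell markers 9 were in the table, 5 higher, 3 lower and 1 not called, with summed values of 17.9 to 20.7 in PD organoids and 35.0 to 44.1 in DMSO organoids. Most of the DMSO sum came from Espn, an actin bundling protein, which had 2.59, 2.52 and 2.27 in PD organoids, against 27.14, 35.95 and 33.94 in DMSO organoids, and most of the PD sum from Calb1, which had 9.99, 14.59 and 10.32 in PD organoids, against 0.17, 0.17 and 0.92 in DMSO organoids. The direction of the hair cell sum therefore rests on Espn. Of 16 supporting cell and prosensory markers 10 were in the table, 1 higher and 9 lower. Their summed values were 989 to 1030 in PD organoids and 886 to 970 in DMSO organoids. Fam107a, the 1 that rose, had 861.98, 841.64 and 889.66 in PD organoids, most of the PD sum. In DMSO organoids it had 385.31, 410.54 and 403.26. The direction of this sum therefore rests on Fam107a, against 9 markers that fell. All 3 listed markers of cartilage and bone were higher, with sums of 40.5 to 51.4 in PD organoids and 11.4 to 14.6 in DMSO organoids. Of 5 listed smooth muscle and pericyte markers 3 were higher and 2 lower, with sums of 267 to 275 in PD organoids and 44.9 to 47.6 in DMSO organoids, nearly all from Myl9.

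Of 8 endothelial markers 4 were in the table, 3 higher and 1, Tek, lower. Their sums were 35.7 to 42.2 in PD organoids and 45.8 to 49.4 in DMSO organoids. Of 10 glial and neural crest markers 3 were in the table, 2 higher and 1 lower. Their sums were 19.4 to 19.7 in PD organoids and 17.1 to 20.0 in DMSO organoids. Of 7 ciliated epithelium markers 4 were in the table, 2 higher and 2 lower. Their sums were 6.03 to 8.79 in PD organoids and 12.7 to 14.1 in DMSO organoids. Both listed markers of stria and melanocytes, Slc12a2 and Slc26a4, were higher. Ptprc, which marks leukocytes, had 0.21, 0.21 and 0.06 in PD libraries, and in DMSO libraries its value was 0 throughout.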
